A study of Mus musculus with 8 samples.

Results

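Mitosis genes, whose products drive chromosome condensation, spindle assembly, chromosome segregation and cytokinesis, were followed in CD45+/Sca1+ blood-lineage cells of mouse muscle and bone marrow. The set holds 38 named genes, and each was read from the probe sets annotated to it alone, with older symbols accepted. Of the 38 genes, 36 had such a probe set (66 probe sets in all, among 12393 named genes on the array), and 35 passed the filter on low values. Each gene is represented by whichever of its probe sets was brightest on average over the 8 arrays. Ccnb1, which encodes cyclin B1, and Cdca8, which encodes the passenger protein borealin, had no probe set of their own in the annotation and are not analysed here. Cenpe, a kinesin of the kinetochore, had a probe set that did not pass the filter.

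All samples came from C57BL/6 mice of 6 to 8 weeks, and all cells were sorted as CD45+/Sca1+, that is, positive for the pan-leukocyte antigen encoded by Ptprc and for stem cell antigen 1. The 4 groups held 2 arrays each. They were cells of cardiotoxin-injured muscle of bone marrow transplanted mice (Muscle_+Ctx/BMT, here "transplanted injured muscle"), cells of cardiotoxin-injured muscle without a transplant (Muscle_+Ctx, "untransplanted injured muscle"), cells of muscle with neither treatment (Muscle, "uninjured muscle"), and cells of bone marrow (BM, "bone marrow"). Cardiotoxin is a snake venom peptide that kills muscle fibres and sets off regeneration. The labels used here do not give the time after injury, the donor or the conditioning of the transplants, or whether the 2 arrays of a group came from separate animals. The p-values are therefore set against array-to-array spread within groups, part of which may be technical. In such bulk samples fewer dividing cells and less of a transcript per dividing cell cannot be told apart.

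A cell enters mitosis when the kinase CDK1, bound to a B-type cyclin, becomes active; Aurora and Polo kinases then build the spindle, and condensin with topoisomerase II compacts the chromosomes. The spindle checkpoint (BUB1, BUBR1, TTK, MAD2) holds back the ubiquitin ligase called the anaphase promoting complex until every kinetochore is attached, after which CDC20 and UBE2C drive the destruction of cyclin B. Most of these genes are transcribed late in the cell cycle. They are repressed in resting cells by the DREAM complex and activated in dividing cells by MuvB with B-MYB and FOXM1, which act through a promoter element called the cell cycle genes homology region, and by NF-Y, which binds CCAAT boxes.

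Promoter windows of 250 bases before to 50 after the gene start were taken from RefSeq (build GRCm38.p6) for 32 of the 38 genes. Tpx2, Kif20a, Smc4, Foxm1, Ccna2 and Aurkb had no entry. The homology region was searched as TTTGAA on both strands and the CCAAT box as CCAAT on both strands. The motifs can share only the base at their ends, and a CCAAT box that ran into its own reverse complement was counted on each strand. The homology region letters were in the windows of 24 of the 32 genes (75.0%), against 20.2% of 27025 genes with a window. A CCAAT box was in 27 of the 32 (84.4%), against 41.1% of all genes, and 2 or more were in 19 (59.4%), against 13.3%. Both motifs stood in 1 window for 23 mitosis genes (71.9%), against 7.97% of all genes. Of 31 homology region matches in mitosis genes 21 (67.7%) lay within 50 bases of the start, against 25.7% of the matches in all genes, while such a stretch makes up 33.3% of the window. CCAAT boxes of mitosis genes lay there in 35.4% of cases and were densest in the 100 bases before the start. Of these 8 promoters, 7 belong to genes with large differences below, chosen for the layout of both motifs, and that of Mad2l1 is the contrast with neither motif. Each runs from 130 bases before to 20 after the start, 5′ to 3′ on the gene's strand, with TTTGAA or TTCAAA and CCAAT or ATTGG in capitals.
Cdk1 (chr10:69352893-69353042, minus strand): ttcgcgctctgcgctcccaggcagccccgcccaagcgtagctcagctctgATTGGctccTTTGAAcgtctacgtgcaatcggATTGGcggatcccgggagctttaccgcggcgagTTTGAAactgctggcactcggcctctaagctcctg
Ccnb2 (chr9:70421535-70421684, minus strand): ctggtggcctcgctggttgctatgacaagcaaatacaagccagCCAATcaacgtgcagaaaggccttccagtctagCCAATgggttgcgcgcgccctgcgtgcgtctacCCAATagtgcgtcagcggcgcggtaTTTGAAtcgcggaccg
Ube2c (chr2:164769799-164769948, plus strand): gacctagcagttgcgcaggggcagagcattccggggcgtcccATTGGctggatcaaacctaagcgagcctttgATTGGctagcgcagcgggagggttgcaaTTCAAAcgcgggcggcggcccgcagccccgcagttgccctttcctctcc
Cdc20 (chr4:118437324-118437473, minus strand): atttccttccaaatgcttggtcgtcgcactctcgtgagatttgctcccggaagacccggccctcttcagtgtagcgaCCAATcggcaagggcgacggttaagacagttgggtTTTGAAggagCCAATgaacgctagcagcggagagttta
Hmmr (chr11:40733418-40733567, minus strand): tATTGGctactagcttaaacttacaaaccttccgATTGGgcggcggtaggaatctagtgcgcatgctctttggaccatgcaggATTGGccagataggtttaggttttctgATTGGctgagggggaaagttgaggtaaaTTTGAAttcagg
Prc1 (chr7:80294321-80294470, plus strand): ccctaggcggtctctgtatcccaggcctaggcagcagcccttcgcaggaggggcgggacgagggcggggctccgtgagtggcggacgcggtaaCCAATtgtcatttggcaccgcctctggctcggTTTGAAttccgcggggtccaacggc
Top2a (chr11:99024170-99024319, minus strand): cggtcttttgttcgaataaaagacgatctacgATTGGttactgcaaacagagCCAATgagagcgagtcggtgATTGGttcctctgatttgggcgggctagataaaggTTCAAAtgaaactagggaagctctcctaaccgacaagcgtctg
Mad2l1 (chr6:66535091-66535240, plus strand): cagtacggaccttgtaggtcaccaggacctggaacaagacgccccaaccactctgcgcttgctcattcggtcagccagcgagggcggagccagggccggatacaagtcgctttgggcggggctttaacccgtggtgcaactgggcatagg
In Cdk1, Ube2c, Cdc20 and Top2a a homology region match lay just before the start, in Prc1 it ended at the start, and in Ccnb2 and Hmmr it lay just after it. In each of these 7 promoters a CCAAT box lay upstream of that match. A match describes letters only and is not evidence that a factor bound there.

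**Figure D1:**
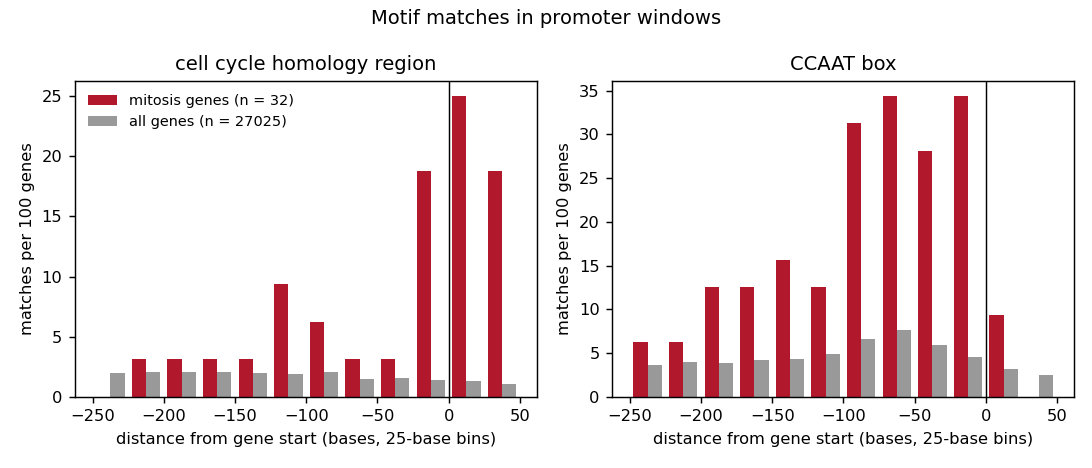
Motif matches per 100 genes (vertical axis) by distance from the gene start in 25-base bins (horizontal axis), for the 32 mitosis genes with a promoter window (red) and all 27025 genes (grey). Homology region matches of mitosis genes peak at 25 per 100 genes in the bin from the start to 25 bases after it, and CCAAT boxes reach 34.4 per 100 genes in 2 of the bins that cover the 100 bases before it.

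Intensities on each array were already scaled by the authors to a trimmed mean of about 250.1. Ptprc was between 4924 and 6996 on all 8 arrays, so the transcript of the sort antigen CD45 was detected in every group. The arrays do not measure the surface protein. The transcript of stem cell antigen 1 was not checked because its gene, Ly6a, had no probe set annotated to it alone. Some measures that move with the groups bear on every comparison below. The ratio of the 3′ to the 5′ Gapdh control probe sets, which rises when RNA is shortened, was 0.882 and 0.868 in transplanted injured muscle, 0.833 and 0.808 in untransplanted injured muscle, 46.9 and 13.6 in uninjured muscle, and 24.4 and 10.7 in bone marrow. Replicates correlated at 0.957, 0.956, 0.837 and 0.929 in that order of groups, so uninjured muscle had the widest replicate spread. Summed marker levels of macrophages (7 of 7 markers with a probe set) were 43372 to 47940, 44049 to 44750, 16207 to 19486, and 3327 to 4163 in the same order. Neutrophil markers (6 of 6) summed to 161 to 224, 110 to 132, 10438 to 16666, and 27251 to 34603, and stem and progenitor markers (5 of 6) to 126 to 142, 353 to 361, 1482 to 1521, and 2413 to 2872. No marker was at exactly 0 on any array. The part of these measures in the results for mitosis genes was not tested.

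Mitosis genes were low in transplanted injured muscle and high in bone marrow. The median intensity of the 35 tested genes was 94.8 and 83.0 on the arrays of transplanted injured muscle, 216 and 232 in untransplanted injured muscle, 162 and 120.2 in uninjured muscle, and 261 and 281 in bone marrow. The median of all tested genes stayed between 152 and 194 on the same arrays. From 5 to 9 of the 35 were under 38.4, the filter value, in transplanted injured muscle, 2 on each array of untransplanted injured muscle, 2 and 4 in uninjured muscle, and 0 or 1 in bone marrow. By group mean, 25 of the 36 genes were highest in bone marrow and 11 in untransplanted injured muscle. The lowest group was transplanted injured muscle for 29 genes and uninjured muscle for 7. These 7 were Cdk1, Ube2c, Aurka, Bub1b, Plk1, Kif20a and Racgap1. Cenpe was dim throughout, at 1.74 and 16.4 in transplanted injured muscle, 25.9 and 28.3 in untransplanted injured muscle, 33.0 and 13.6 in uninjured muscle, and 0.511 and 23.4 in bone marrow, all under the filter value, and is in no test.

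**Figure D2:**
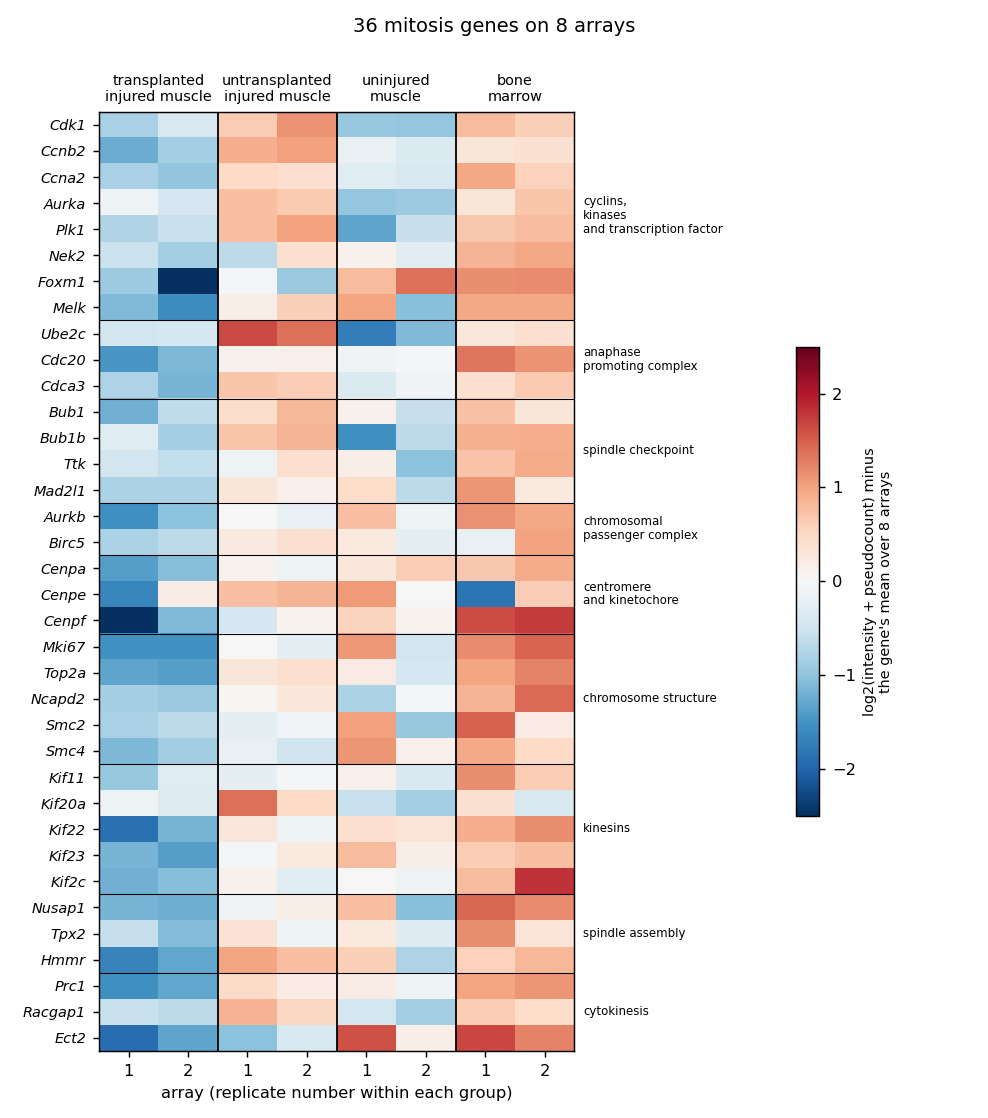
Heat map of 36 mitosis genes (rows, by role) on 8 arrays (columns, by group). Colour is log2(intensity + 4.02) minus the gene's mean over the arrays, and values past the ends of the scale take its end colours. Transplanted injured muscle is mostly blue (lower), bone marrow mostly red (higher), and the uninjured muscle arrays differ from each other.

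The comparison of transplanted with untransplanted injured muscle sets side by side 2 cardiotoxin-injured groups that differ by label in the transplant. The 6 comparisons of the 4 groups share arrays, so they are not independent of each other. All 35 tested mitosis genes had a negative log2 fold change, with a median of -1.30 (2.46-fold lower) and a range from -2.35 to -0.48, while the median of all tested genes was 0.00. In 33 of the 35 both arrays of transplanted injured muscle lay below both arrays of untransplanted injured muscle, against 26.5% of all genes. The exceptions were Nek2 and Foxm1, whose groups overlapped. In the limma fit over all 8 arrays, however, 0 of 35 passed the test at an adjusted p of 0.05, where 0.274% of all genes were called lower and 0.0421% higher. At an unadjusted p under 0.05, 25 were lower and 0 higher, where 7.35% of all genes were lower and 2.41% higher, and the smallest adjusted p was 0.0582, for Ccnb2. Fitted on only the 4 arrays compared, limma called 24 of the 35 lower, against 5.42% of all genes. There Top2a had a limma adjusted p of 0.000160, Ube2c 0.000179, Ccnb2 0.000373, Mki67 0.000760 and Hmmr 0.000845. The 11 that did not pass in that smaller fit were Cenpf, Aurkb, Tpx2, Kif20a, Smc2, Kif2c, Foxm1, Ttk, Ect2, Kif11 and Nek2. Leaving out uninjured muscle replicate 1 gave 11 calls (1.6% of all genes) and leaving out replicate 2 gave 12 (1.78%), so the count rested on the spread taken from arrays outside this comparison.

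Among the cyclins and kinases, Ccnb2, the cyclin partner of CDK1, had an intensity of 90.2 and 119 in transplanted injured muscle, 415 and 452 in untransplanted injured muscle, 191 and 172 in uninjured muscle, and 272 and 285 in bone marrow. Both arrays of transplanted injured muscle were the lowest of the 8. The log2 fold change against untransplanted injured muscle was -2.02 (SE 0.31, limma adjusted p = 0.0582). Cdk1, the mitotic kinase, had 135 and 180.2 in transplanted injured muscle, 372 and 525 in untransplanted injured muscle, 122 and 120.2 in uninjured muscle, and 418 and 363 in bone marrow. Transplanted injured muscle lay below untransplanted injured muscle and bone marrow without overlap, and just above uninjured muscle. Its log2 fold change was -1.48 (SE 0.33). Ccna2, the cyclin of S phase and mitotic entry, had 192 and 170.0 in transplanted injured muscle, 480.0 and 458 in untransplanted injured muscle, 275 and 262 in uninjured muscle, and 673 and 511 in bone marrow, so that transplanted injured muscle was the lowest group. For Plk1, the Polo kinase, the values were 55.6 and 63.6 in transplanted injured muscle, 164 and 198 in untransplanted injured muscle, 35.9 and 62.7 in uninjured muscle, and 156 and 166 in bone marrow. Here transplanted injured muscle overlapped uninjured muscle and was below the other groups. Aurka, the centrosomal Aurora kinase, had the smallest difference among the genes of this role whose groups did not overlap, with 106 and 85.3 in transplanted injured muscle, 195 and 183 in untransplanted injured muscle, 56.8 and 59.7 in uninjured muscle, and 142 and 188 in bone marrow and a log2 fold change of -0.96 (SE 0.33). Melk, a kinase abundant in dividing progenitor cells, had 30.8 and 21.1 in transplanted injured muscle, 80.1 and 109 in untransplanted injured muscle, 144 and 32.1 in uninjured muscle, and 143 and 142 in bone marrow. Both transplanted arrays were under the filter value, and the level was at least 2.30-fold lower than in untransplanted injured muscle, with the dim arrays set to the filter value of 38.4 for this bound.

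In the group around the anaphase promoting complex, the differences between the injured groups were among the larger ones. Ube2c, the ubiquitin-conjugating enzyme of the complex, had 141 and 143 in transplanted injured muscle, 615 and 512 in untransplanted injured muscle, 56.0 and 88.5 in uninjured muscle, and 236 and 257 in bone marrow. No groups overlapped, and untransplanted injured muscle stood far above all others. Its log2 fold change between the injured groups was -1.95 (SE 0.34, limma adjusted p = 0.0685). Cdc20, the activator of the complex, had 104 and 131 in transplanted injured muscle, 315 and 317 in untransplanted injured muscle, 276 and 285 in uninjured muscle, and 742 and 643 in bone marrow. The replicates of each group were close together, and transplanted injured muscle was lowest. Cdca3, a mitotic entry factor that the complex degrades, had 100.1 and 75.7 in transplanted injured muscle, 284 and 266 in untransplanted injured muscle, 134 and 162 in uninjured muscle, and 230.1 and 277 in bone marrow, with a log2 fold change of -1.61 (SE 0.32).

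Genes of the spindle checkpoint and the centromere were lower in transplanted injured muscle too, with median log2 fold changes of -1.18 over 4 checkpoint genes and -1.44 over 2 centromere genes. Bub1, the checkpoint kinase, had 31.2 and 48.3 in transplanted injured muscle, 106 and 139.9 in untransplanted injured muscle, 83.7 and 50.6 in uninjured muscle, and 132 and 96.4 in bone marrow, with a log2 fold change of -1.55 (SE 0.42). Bub1b, which encodes BUBR1, had 105 and 71.8 in transplanted injured muscle, 216 and 239.8 in untransplanted injured muscle, 42.5 and 81.6 in uninjured muscle, and 246 and 249 in bone marrow, with a log2 fold change of -1.35 (SE 0.40). Transplanted injured muscle was lowest for Bub1, while for Bub1b it overlapped uninjured muscle. Ttk, the kinase MPS1, had a smaller difference of -0.68 (SE 0.48), and Mad2l1, the checkpoint protein MAD2 whose promoter window held neither motif, had -1.01 (SE 0.45). Cenpa, the histone variant that marks centromeres, had 110.3 and 138 in transplanted injured muscle, 313 and 266 in untransplanted injured muscle, 358 and 448 in uninjured muscle, and 469 and 557 in bone marrow. Cenpf, a large kinetochore protein, had 17.6 and 56.4 in transplanted injured muscle, 92.5 and 135 in untransplanted injured muscle, 188 and 134 in uninjured muscle, and 399 and 430.2 in bone marrow. By group mean transplanted injured muscle was lowest for both genes, untransplanted injured muscle was next and bone marrow was highest, and the injured groups did not overlap.

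Genes of chromosome structure covered a wide range. Mki67, which encodes the chromosome surface protein Ki-67 used as a proliferation marker, had 239.7 and 237 in transplanted injured muscle, 691 and 583 in untransplanted injured muscle, 1462 and 498 in uninjured muscle, and 1557 and 1901 in bone marrow. Transplanted injured muscle lay below all other arrays, and the replicates of uninjured muscle were far apart. Top2a, topoisomerase II, had 231 and 221 in transplanted injured muscle, 717 and 774 in untransplanted injured muscle, 667 and 429 in uninjured muscle, and 1155 and 1371 in bone marrow, and its log2 fold change between the injured groups was -1.71 (SE 0.31, limma adjusted p = 0.0796). The condensin subunits Ncapd2, Smc4 and Smc2 had smaller log2 fold changes, of -1.02, -0.65 and -0.59. Aurkb and Birc5, kinase and survivin subunits of the chromosomal passenger complex, had -1.18 (SE 0.41) and -1.03 (SE 0.43).

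For the spindle and cytokinesis, the largest difference of the whole set was that of Hmmr, a microtubule-binding protein of the spindle. It had 37.97 and 50.1 in transplanted injured muscle, 260.4 and 219 in untransplanted injured muscle, 196 and 73.7 in uninjured muscle, and 195 and 234 in bone marrow. Transplanted injured muscle was below all other arrays and untransplanted injured muscle overlapped bone marrow. The log2 fold change between the injured groups was -2.35 (SE 0.47, limma adjusted p = 0.114), a 5.09-fold lower level. Prc1, which bundles midzone microtubules, had 61.6 and 73.7 in transplanted injured muscle, 263 and 216 in untransplanted injured muscle, 213 and 171 in uninjured muscle, and 376 and 409 in bone marrow. Its log2 fold change was -1.76 (SE 0.32, limma adjusted p = 0.0796), and transplanted injured muscle was again the lowest group. Racgap1, the GTPase-activating subunit of centralspindlin, had -1.29 (SE 0.33), while Ect2, the exchange factor that it recruits, was under the filter value on all 4 arrays of these groups, so no fold is given. The kinesins spread from Kif22, the chromokinesin KID, at -1.60 (SE 0.35), over Kif23, the motor of centralspindlin, at -1.38, Kif20a, which carries the passenger complex to the midzone, at -1.15, and Kif2c, a microtubule depolymerase, at -1.03, to Kif11, the motor that separates the spindle poles, at -0.48 (SE 0.40), the smallest of the 35. Nusap1 and Tpx2, which organise spindle microtubules, had -1.23 and -0.96. Among the 23 further probe sets of 15 of these genes that were tested, 22 also had a negative log2 fold change, and 1 passed the limma test, a probe set of Kif22. The Gapdh control ratios of these groups were close, at 0.868 to 0.882 in transplanted and 0.808 to 0.833 in untransplanted injured muscle.

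**Figure D3:**
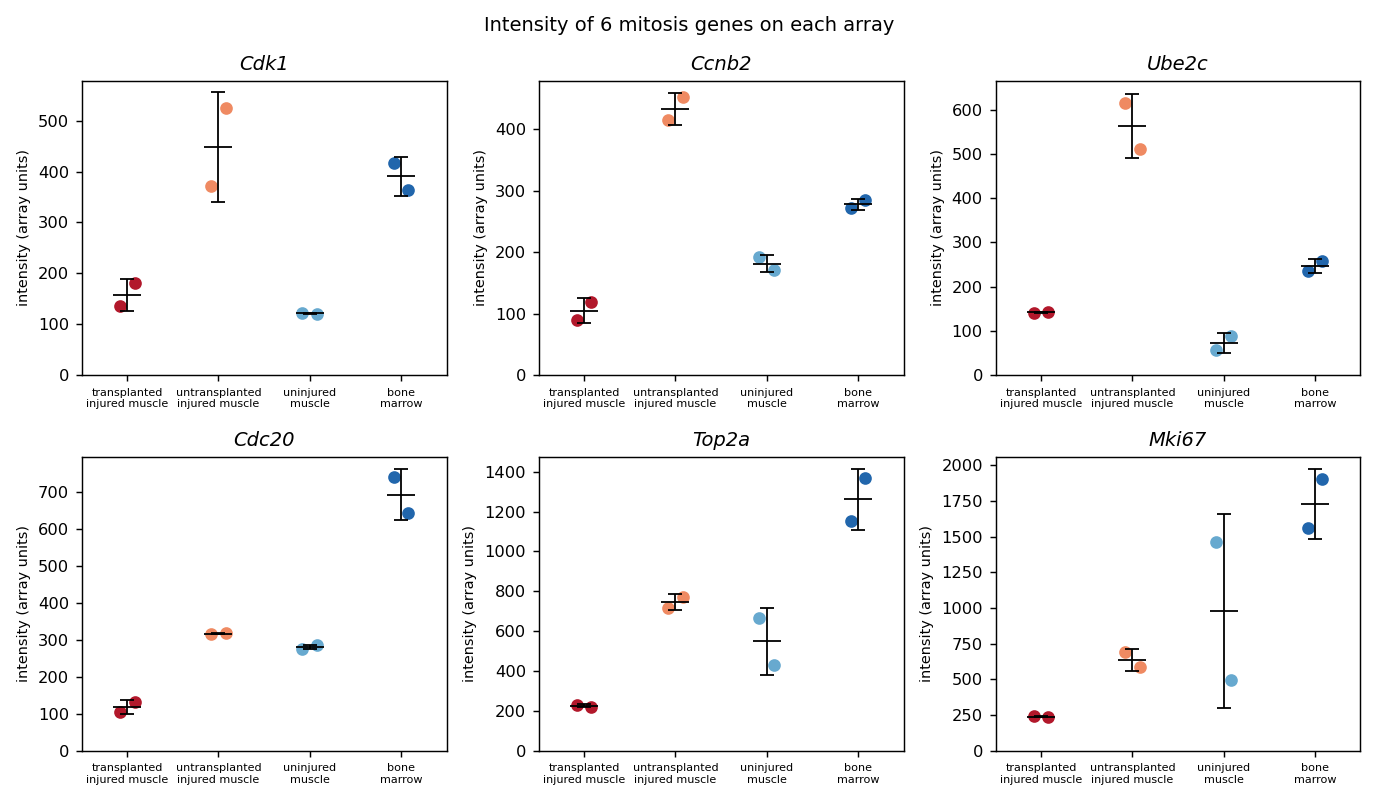
Intensity (array units, vertical axis from 0) of Cdk1, Ccnb2, Ube2c, Cdc20, Top2a and Mki67 in the 4 groups (horizontal axis). Points are arrays, long bars are means and error bars are SD (n = 2 arrays); transplanted injured muscle lies below untransplanted injured muscle in all 6 panels, and the replicates of Mki67 in uninjured muscle are far apart.

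Markers of other cell types differed between the injured groups as well. Mast cell markers (4 of 4 with a probe set) summed to 161 to 174 in transplanted and 2678 to 3013 in untransplanted injured muscle. Fibroblast markers (5 of 5) summed to 3495 to 3685 and 18644 to 18840 in the same groups, and muscle fibre markers (4 of 4) to 140.1 to 144 and 708 to 820. The sum of natural killer markers (5 of 5 with a probe set) ran the other way, at 2385 to 2494 in transplanted and 496 to 553 in untransplanted injured muscle. Within that sum Gzma had 1660 and 1659 in transplanted and 85.1 and 73.8 in untransplanted injured muscle. Klrd1 overlapped, at 254 and 356 against 281 and 318 in the same groups. The part of all these markers in the lower levels of the mitosis genes was not tested.

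Against bone marrow, most mitosis genes fell in transplanted injured muscle. By limma 29 of 35 passed the test as lower and 0 as higher (0 also at an unadjusted p under 0.05, where 16.2% of all genes were), while 19.5% of all genes were called lower and 12% higher. The median log2 fold change was -1.68 (3.20-fold lower), against -0.32 for all genes, and 34 of 35 genes had groups without overlap, all with transplanted injured muscle lower, where 44.8% of all genes were so and 27.9% had it higher. The gene whose groups overlapped was Kif20a. Of the 23 further tested probe sets of 15 genes, 20 had a negative log2 fold change. The 3 with a positive one belonged to Smc4, Kif11 and Kif2c. By limma 10 of the 23 passed as lower and 1 as higher, that of Smc4, by at least 1.94-fold. Cenpf fell by 3.53 on the log2 scale (SE 0.51, limma adjusted p = 0.00182), to 17.6 and 56.4 in transplanted injured muscle against 399 and 430.2 in bone marrow. Mki67 fell by 2.83 (SE 0.47, limma adjusted p = 0.00329), Kif22 by 2.55 and Cdc20 by 2.53 (limma adjusted p = 0.000751, the smallest of the set). For 4 genes both transplanted arrays were under the filter value: levels were at least 3.61-fold lower for Foxm1, the transcription factor of the mitotic programme, at least 3.45-fold for Melk, at least 3.28-fold for Ect2, and at least 2.23-fold for Nek2, a kinase of centrosome separation. The 6 genes that did not pass were Ube2c (-0.78), Aurka (-0.75), Birc5 (-1.13), Kif20a (-0.21), Smc2 (-1.56) and Ttk (-1.35). Without transplanted replicate 1 or 2 the count of lower genes was 15 and 16, and without bone marrow replicate 1 it was 18, with 9.35%, 9.85% and 10.9% of all genes called lower. This comparison joins arrays with Gapdh ratios of 0.868 to 0.882 in transplanted injured muscle and 10.7 to 24.4 in bone marrow, and the part of that difference was not tested.

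**Figure D4:**
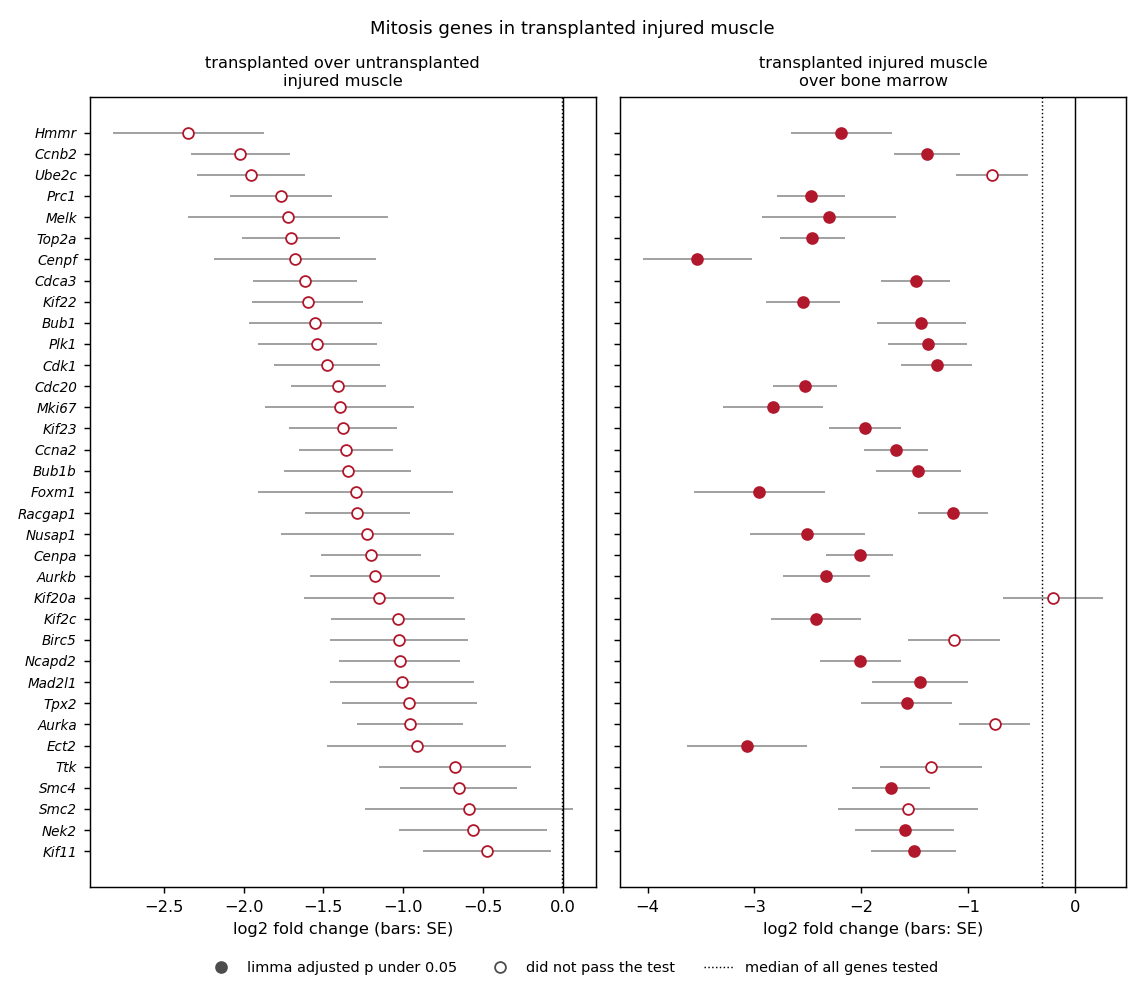
Log2 fold change (horizontal axis, bars are SE) of 35 mitosis genes in transplanted injured muscle over untransplanted injured muscle (left) and over bone marrow (right). Filled points passed limma at an adjusted p of 0.05 (0 at left, 29 at right), and the dotted line is the median of all tested genes; all points lie left of 0.

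Against uninjured muscle, 12 of the 35 genes fell in transplanted injured muscle and 0 rose by limma (1, Ube2c, was higher at an unadjusted p under 0.05, where 15.5% of all genes were), while 20.8% of all genes were called lower and 10.5% higher. The 12 were Aurkb, Cdc20, Cenpa, Cenpf, Ect2, Foxm1, Kif22, Kif23, Mki67, Prc1, Smc4 and Top2a, and 25 genes had both transplanted arrays below both uninjured ones, where 42.6% of all genes had. Top2a fell by 1.23 (SE 0.31), Kif22 by 1.89 (SE 0.35, limma adjusted p = 0.00569) and Cenpf by 2.17 (SE 0.51). Foxm1 was at least 3.39-fold lower and Ect2 at least 2.18-fold, since both transplanted arrays were under the filter value. The median log2 fold change of the 35 was -0.78, against -0.31 for all genes. Of the 23 further tested probe sets of 15 genes, 17 had a negative log2 fold change and 6 a positive one. By limma 5 of the 23 passed as lower and 0 as higher. A further probe set of Cdc20 had -0.31 and a further one of Smc4 had 1.30, and neither passed. Both further Kif22 probe sets had positive values but were under the filter value in both groups. Cdk1, Ube2c, Aurka and Kif20a were higher on both transplanted arrays than on both uninjured ones, where 24.8% of all genes were, with log2 fold changes between 0.36 and 0.97 that did not pass. Without transplanted replicate 1 or 2 the count of lower genes was 2 and 4 (10.2% and 10.8% of all genes), and limma on only the 4 arrays compared called 4 (11.8%). Without uninjured muscle replicate 2 the counts were 17 lower and 1 higher (22.8% and 19.4%). The Gapdh ratios differed as in the comparison with bone marrow.

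In untransplanted injured muscle 22 of the 35 log2 fold changes against uninjured muscle were positive and 13 were negative. Against uninjured muscle, 8 of 35 mitosis genes rose in untransplanted injured muscle by limma and 0 fell (3 at an unadjusted p under 0.05, where 24.6% of all genes were lower), while 8.77% of all genes were called higher and 15.1% lower. The median log2 fold change was 0.32, against -0.25 for all genes; 16 genes had both injured arrays above both uninjured ones, where 24.5% of all genes had, and 5 had both below, where 40.1% had. Ube2c rose most, to 615 and 512 in untransplanted injured muscle against 56.0 and 88.5 in uninjured muscle (log2 fold change 2.92, SE 0.34, limma adjusted p = 0.00181). Among the kinases and the checkpoint, 4 genes rose besides: Bub1b by 1.88 (SE 0.40), Cdk1 by 1.84 (SE 0.33, limma adjusted p = 0.00729), Plk1 by 1.84 (SE 0.37) and Aurka by 1.63 (SE 0.33) on the log2 scale. Bub1 (0.86), Ttk (0.57), Melk (0.41) and Nek2 (-0.05) did not pass. Racgap1 rose by 1.33 and Ccnb2 by 1.24. Kif20a was at least 2.38-fold higher, since both uninjured arrays were under the filter value, with 133 and 70.6 in untransplanted injured muscle against 32.0 and 25.3 in uninjured muscle. In the other direction stood Foxm1, with a log2 fold change of -1.56 (SE 0.61, limma adjusted p = 0.0933), Ect2, at least 2.18-fold lower, and Smc4 with -0.96 (limma adjusted p = 0.0858), none of which passed. The further Smc4 probe sets were positive, 1 at 1.85 (limma adjusted p = 0.0280), which passed as higher, and 1 at 0.49, which did not pass.

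Which genes rose after injury without a transplant rested partly on which probe set and which arrays were read. Of the 23 further tested probe sets of 15 genes, 8 had the same direction as the gene's main probe set; 7 passed limma as higher and 1 as lower. A second Cdc20 probe set had 394 and 430.0 in untransplanted injured muscle against 162 and 136 in uninjured muscle (log2 fold change 1.45, limma adjusted p = 0.0113). The main Cdc20 probe set had a log2 fold change of 0.17. The other probe sets that passed as higher belonged to Kif22, Smc4, Kif2c, Hmmr and Kif11. The main probe set of each of these genes did not pass. The probe set that passed as lower was of Cdca3. Without untransplanted replicate 1 or 2 the count of genes that rose was 2 and 1 (2.01% and 2.18% of all genes), on only the 4 arrays compared it was 3 (3.96%), and without uninjured replicate 2 limma called 3 genes lower (18.9%). The control ratio for Gapdh was 0.833 and 0.808 in untransplanted injured muscle against 46.9 and 13.6 in uninjured muscle, and macrophage marker sums were 44049 to 44750 against 16207 to 19486; their part in these differences was not tested.

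**Figure D5:**
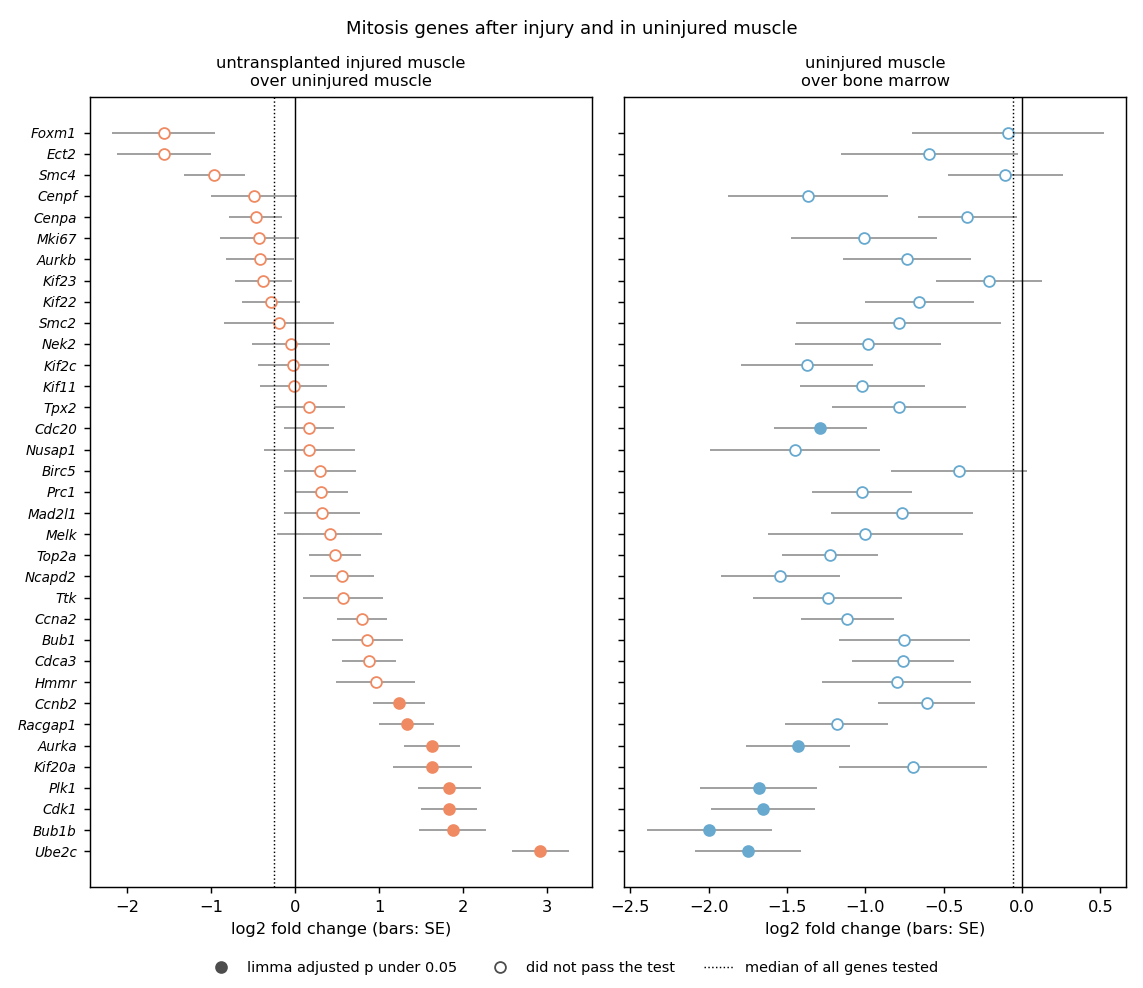
Log2 fold change (horizontal axis, bars are SE) of 35 mitosis genes in untransplanted injured muscle over uninjured muscle (left) and in uninjured muscle over bone marrow (right). Filled points passed limma at an adjusted p of 0.05 (8 higher at left, 6 lower at right), and the dotted line is the median of all tested genes.

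Uninjured muscle differed from bone marrow by lower mitosis genes. All 35 log2 fold changes were negative, with a median of -1.0 against -0.06 for all genes, and 26 genes had both muscle arrays below both bone marrow arrays, where 22% of all genes had. By limma 6 fell and 0 rose (0 also at an unadjusted p under 0.05, where 12.4% of all genes were higher), while 1.4% of all genes were called lower and 5.85% higher. Bub1b fell by 2.0 (SE 0.40, limma adjusted p = 0.0242), to 42.5 and 81.6 in uninjured muscle against 246 and 249 in bone marrow. Ube2c fell by 1.75 (SE 0.34), Plk1 by 1.68 (SE 0.37), Cdk1 by 1.66 (SE 0.33), Aurka by 1.43 (SE 0.33) and Cdc20 by 1.29 (SE 0.30). Foxm1 and Smc4 had the smallest differences, of -0.09 and -0.11, and their groups overlapped. Of the 23 further tested probe sets of 15 genes, 18 had a negative log2 fold change. The 5 with a positive one belonged to Smc4, Kif2c and Cdca3. By limma 3 of the 23 passed as lower, of Cdc20 and Kif22, and 0 as higher. The calls depended on the arrays in the fit: the count of lower genes was 0 without any 1 of the bone marrow or injured arrays and on only the 4 arrays compared, and 9 without uninjured muscle replicate 1 or 2 (2.55% and 12.8% of all genes). Neutrophil marker sums were 10438 to 16666 in uninjured muscle and 27251 to 34603 in bone marrow, and B cell progenitor marker sums (7 of 7) were 647 to 665 and 5341 to 5560; their part was not tested.

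Between untransplanted injured muscle and bone marrow 22 genes had both injured arrays below both bone marrow arrays and 3 had both above, where 44.1% and 29.1% of all genes had. By limma 1 rose, Ube2c, by 1.17 (SE 0.34, limma adjusted p = 0.0326), and 5 fell, where 12.6% of all genes were called higher and 17.2% lower, so neither share was above that of all genes. The 5 were Ect2, at least 3.28-fold lower, Cenpf (log2 fold change -1.86, SE 0.51), Mki67 (-1.43), Kif2c (-1.40) and Cdc20 (-1.12). Cdk1, Aurka, Plk1, Bub1, Racgap1, Hmmr and Cdca3 had overlapping groups and log2 fold changes between 0.11 and 0.20. The median was -0.67, against -0.27 for all genes. Of the 23 further tested probe sets of 15 genes, 10 had the same direction as the gene's main probe set. By limma 4 of the 23 passed as higher and 1 as lower. For Kif2c the direction depended on the probe set: another had 102 and 109 in untransplanted injured muscle against 29.1 and 33.3 in bone marrow. Smc4 and Kif11 had main log2 fold changes of -1.07 and -1.04. A further probe set of each passed as higher, by at least 2.82-fold and 2.14-fold. Ube2c also passed without either uninjured muscle array, and did not without any 1 of the other 6 arrays. The count of lower genes was 0 without either untransplanted injured array or bone marrow replicate 2, 1 without bone marrow replicate 1, and 3 without either transplanted array. Without uninjured muscle replicate 1 or 2 the count was 12 and 13, with 24.9% of all genes called lower in both fits.

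Many mitosis genes also differed in 1 direction between the replicates of uninjured muscle. Replicate 1 was higher than replicate 2 in 26 of 35, with a median log2 difference of 0.41, while 47.1% of all genes were higher in replicate 1 and their median was -0.06. Mki67 had 1462 and 498, Nusap1 341 and 94.9, Smc2 504 and 125, Melk 144 and 32.1, and Smc4 2384 and 1198 on replicates 1 and 2. Cdk1 (122 and 120.2), Ccna2 (275 and 262) and Cdc20 (276 and 285) were nearly equal. In the other groups replicate 1 was higher in 16, 17 and 15 of 35, for transplanted injured muscle, untransplanted injured muscle and bone marrow. In uninjured muscle the summed fibroblast markers were 27714 and 6948 and the T cell markers (4 of 5) 2212 and 778 on replicates 1 and 2, and the Gapdh ratio was 46.9 and 13.6; their part was not tested.

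Other genes of the cell cycle were read from lists outside the 38 members. Between transplanted and untransplanted injured muscle, limma called 0 genes in either direction in each of 9 lists. At an unadjusted p under 0.05, where 7.35% of all genes were lower and 2.41% higher, it called 0 higher in all 9, and as lower 8 of 21 spindle, kinesin and cytokinesis genes, 4 of 12 genes of mitotic entry, 3 of 21 S phase genes, 2 of 22 kinetochore genes, 2 of 14 cohesin and condensin genes, 2 of 5 kinase inhibitors, 1 of 14 anaphase promoting complex genes, and 0 of 12 Rb and E2F and 0 of 7 G1 genes. The median log2 fold changes were -0.81 for mitotic entry, -0.39 for S phase, -0.38 for the spindle list, -0.36 for the kinetochore list and 0.03 for the anaphase promoting complex list, against -1.30 for the 35 mitosis genes.

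Against bone marrow, transplanted injured muscle had 14 of 21 S phase genes, 10 of 22 kinetochore genes, 8 of 21 spindle genes, 6 of 14 cohesin and condensin genes and 5 of 12 entry genes lower, while 1 kinetochore gene was higher and the anaphase promoting complex list had 2 higher and 3 lower of 14. Of all genes 19.5% were called lower and 12% higher, and the counts of the last list were near those shares. Cks2 and Cks1b, small subunits of cyclin-dependent kinases, fell by 2.91 (SE 0.30) and 2.69 (SE 0.30). Cdca5, the cohesin protector sororin, had 112 and 109 in transplanted injured muscle against 1219 and 1369 in bone marrow, and fell by 3.503 (SE 0.29, limma adjusted p = 0.000189). Stmn1, the microtubule destabiliser stathmin, fell by 2.77 (SE 0.21), and the ribonucleotide reductase genes Rrm1 and Rrm2 by 2.48 and 2.49. One inhibitor went the other way: Cdkn1a, which encodes p21, rose to 3547 and 2888 in transplanted injured muscle against 286 and 707 in bone marrow, a log2 fold change of 2.82 (SE 0.62, limma adjusted p = 0.0111), and its levels in untransplanted injured muscle were 2656 and 2752. Cdkn2c, the inhibitor p18, fell by 2.06 (SE 0.38).

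After injury without a transplant, against uninjured muscle, 2 of 21 S phase genes rose and 1 fell, and each other list had at most 1 higher and 2 lower, where 8.77% of all genes were called higher and 15.1% lower. The replication factor genes Rfc3 and Mcm6 rose, Rfc3 by at least 2.30-fold and Mcm6 to 1019 and 1141 in untransplanted injured muscle against 463 and 329.6 in uninjured muscle (log2 fold change 1.46, SE 0.28). Cdk4, the kinase of the G1 phase, rose by 1.12 (SE 0.29), and Fzr1, the activator that keeps the anaphase promoting complex on after mitosis, by 2.04 (SE 0.49). Mcm2 fell by 1.70 (SE 0.31), Ccnd2, cyclin D2, by 1.11 (SE 0.30), Cks2 by 1.11 (SE 0.30), and Kif4 was at least 2.13-fold lower. Rb1, the retinoblastoma repressor, fell by 1.49 (SE 0.33). In uninjured muscle against bone marrow 6 of 21 S phase genes fell, where 1.4% of all genes did, among them Rfc5 by 1.93 (SE 0.35) and Rrm1 by 1.41 (SE 0.31). Cdk4 fell there by 1.47 and Ccnd1, cyclin D1, by 1.35, and the inhibitor Cdkn1c, which encodes p57, rose by 2.45 (SE 0.46).

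The homology region motif was set beside the fold changes for the 29 tested genes with a promoter window. Between transplanted and untransplanted injured muscle the median log2 fold change was -1.40 for the 23 genes with the motif (range -2.35 to -0.48) and -1.13 for the 6 without it (-1.72 to -0.56). Against bone marrow the medians were -1.96 and -1.52. The ranges overlapped in both comparisons, and with 6 genes in 1 class these values are a description only.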

How the data were processed

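CD45+/Sca1+ cells were hybridised to Affymetrix Mouse430A arrays, 2 for each of 4 groups, assigned from the sample titles. The values, deposited as 1 intensity for each probe set, were made by the authors with GCOS per the submitters' processing notes, and the trimmed mean of each array (2% left out at each end) was about 250.1, so each array had been scaled. Precision is limited by the few arrays. The annotation named 1 gene for 20380 of 22626 probe sets other than 64 controls, several for 691 and none for 1555, and 20351 symbols were updated. Values below 1 were set to 1 and log2(value + 4.02) was taken, the pseudocount being the 10th percentile, so fold changes of dim genes are understated. The 16289 probe sets at or above 38.4 (the 40th percentile) on at least 2 arrays were fitted on all 8 arrays with limma 3.58.1 in R 4.3.3 (4 group means, intensity trend, Benjamini-Hochberg adjustment over all probe sets, threshold 0.05); tables were made with Python 3.11.15 and pandas 2.3.3. A gene took its brightest probe set by the mean of 8 arrays, and no level is compared between probe sets. A group whose arrays were all under 38.4 was set to that value for an "at least" fold. Of each related gene list and comparison, up to 4 genes with the smallest p among those past the threshold could be named. Members and lists were chosen with earlier results of these data known, and the related lists and motifs support nothing on their own. The replicate numbers did not pair the samples by any label. Alternatives were quantile normalization, 2 other pseudocounts, 2 other filters, the mean of a gene's probe sets, no trend, only the 4 arrays compared, a replicate block, and leaving out each array.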

Additional observations from a re-analysis of the deposited data

How the results depend on the processing

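The median of the mitosis genes kept its sign under every alternative run, except between untransplanted injured muscle and uninjured muscle, where it was -0.022 without uninjured muscle replicate 2. Counts of calls moved more. On only the 4 arrays compared, limma called 0 mitosis genes lower in uninjured muscle against bone marrow (0.137% of all genes). It called 3 higher in untransplanted injured against uninjured muscle (3.96%) and 24 lower in transplanted against untransplanted injured muscle (5.42%). In transplanted injured against uninjured muscle 4 were lower (11.8%). In untransplanted injured muscle against bone marrow 12 were lower (21.8%), and Ube2c was higher (15.5%). Between the injured groups the count was 1 with the larger pseudocount (0.389% of all genes) and 4 with a gene's probe sets averaged (0.557%). Against bone marrow, the median of transplanted injured muscle was -1.54 after quantile normalization and -1.84 with the stricter filter, which left fewer genes. For untransplanted injured muscle against bone marrow the median was -0.59 after quantile normalization, -0.58 with the larger pseudocount and -0.47 with the mean of probe sets, and the count of lower genes was 3 without a filter and 2 with the mean of probe sets. After quantile normalization 1 gene was higher in transplanted injured against uninjured muscle, where 10.7% of all genes were. The median of all genes there was -0.19, against -0.31 as deposited. In 1 case a called gene turned its direction: Kif2c in untransplanted injured muscle against bone marrow had a log2 fold change of 0.21, which did not pass, with the mean of its probe sets. Some settings leave fewer arrays or genes, and the cause of these shifts was not tested.

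Leaving out each array in turn, with a lone array assumed to vary like the other groups, gave the ranges below. In every comparison the share of all genes called also changed with the array left out. A shift in the count of calls is therefore not by itself particular to the mitosis genes. Transplanted against untransplanted injured muscle had 0 to 12 genes lower and a median from -1.32 to -1.25. Transplanted injured muscle against bone marrow had 15 to 33 lower and -1.89 to -1.66. Transplanted injured against uninjured muscle had 2 to 17 lower, 0 to 1 higher and -1.11 to -0.53. Untransplanted injured against uninjured muscle had 1 to 9 higher, 0 to 3 lower and -0.022 to 0.75. Untransplanted injured muscle against bone marrow had 0 to 13 lower, 0 to 1 higher and -0.73 to -0.53. Uninjured muscle against bone marrow had 0 to 9 lower and -1.27 to -0.62.

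With the replicate number as a block, 0 genes were lower between the injured groups (0.126% of all genes). For transplanted injured muscle 29 were lower against bone marrow (19.9%) and 12 against uninjured muscle (21.2%). Untransplanted injured muscle against bone marrow had 6 lower (17.8%) and 1 higher (12.8%), neither above the share of all genes. Uninjured muscle against bone marrow had 4 lower (1.21%), and 8 were higher in untransplanted injured against uninjured muscle (8.94%). Deviations of same-numbered arrays correlated between -0.03 and 0.003 in 5 group pairs and at 0.31 for uninjured muscle and bone marrow, where the block moved the count of lower genes to 4, against 6 without it. No label says that a number marks a shared animal, batch or day.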

Other observations

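Some mitosis genes were read differently by their further probe sets, and these were named after their values were seen. A probe set of Kif22 had 3.07 and 3.86 in transplanted injured muscle, 68.9 and 91.5 in untransplanted injured muscle, 2.22 and 2.62 in uninjured muscle, and 44.1 and 40.3 in bone marrow. Transplanted injured muscle and uninjured muscle were under the filter value, so the probe set was at least 1.97-fold lower in transplanted than in untransplanted injured muscle (limma adjusted p = 0.0489) and at least 1.97-fold higher in untransplanted injured than in uninjured muscle (adjusted p = 0.00293). The main Kif22 probe set had a log2 fold change of -1.60 between the injured groups and -0.29 after injury without a transplant. A probe set of Smc4 had 61.3 and 99.6 in transplanted injured muscle, 118 and 113 in untransplanted injured muscle, 45.9 and 18.2 in uninjured muscle, and 25.2 and 23.5 in bone marrow, an order of groups unlike that of the main probe set, where bone marrow and uninjured muscle were high.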
